A study of Drosophila melanogaster with 42 samples.

Results

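Acp98AB, Mst57Da, Mst57Db, Mst57Dc and CG42852 are 5 short genes whose RNA was among the most abundant in the bodies of male offspring in a study of paternal restraint stress in Drosophila melanogaster. They were selected by gene symbol, 5 of the 15061 genes listed in each of 4 deposited tables, and the selection was made with their levels and their difference in other parts with dATF-2KO fathers already known. Values from that comparison are therefore given as a description, without a test of the 5 genes. Fathers were w1118, the wild-type strain, or dATF-2KO, which lack the gene for the stress-responsive transcription factor dATF-2. They were either restrained in 3 sessions of 10 hours each or left unrestrained, and the mothers were w1118 in every cross, so that all sons received a maternal chromosome set from w1118. RNA was taken from heads and from other parts, the rest of the body without the head, of 50 males per library, aged 5 to 6 days in the sample labels and 6 to 7 days in the series text. The labels list 5 unrestrained and 5 restrained libraries for heads with w1118 fathers and for heads and other parts with dATF-2KO fathers, and 6 and 6 for other parts with w1118 fathers. Nothing states that each pool of flies came from a cross of its own, so p-values measure only the spread between these pools.

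Seminal fluid of the fly is produced mainly by the paired accessory glands, whose secretory cells make large amounts of small secreted peptides. These peptides reach the female during mating with the sperm, and as a class they change egg laying, receptivity and sperm storage after mating. Acp98AB is named as an accessory gland peptide gene after its place on the chromosome. Mst57Da, Mst57Db and Mst57Dc are neighbouring male-specific transcripts that encode small accessory gland peptides. CG42852 carries only an annotation number in the tables, and no role is given to it here.

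All 5 genes were found in the current annotation of the fly (Ensembl, on BDGP6), from which only strand, exons and lengths were taken, while positions are those of the tables on dm3. Acp98AB (FBgn0263597) lay on 3R at 23520605-23520773, on the plus strand, with 1 exon and a peptide of 25 residues. The 3 Mst57D genes lay on the minus strand of 3R with 1 exon each. Mst57Dc (FBgn0011670) was at 21655113-21655487 and encodes 76 residues, Mst57Db (FBgn0011669) at 21656444-21656636 and encodes 40, and Mst57Da (FBgn0011668) at 21657297-21657621 and encodes 75. From the start of Mst57Dc to the end of Mst57Da the cluster spanned 2509 bases. CG42852 (FBgn0262099) was at 16748589-16748820 on 3L, on the plus strand, with 2 exons and a peptide of 32 residues. The loci of the tables were 169 bases long for Acp98AB, 193 for Mst57Db, 232 for CG42852, 325 for Mst57Da and 375 for Mst57Dc, and 0 other genes overlapped any of them.

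By the lists of accessory gland and photoreceptor genes, the samples matched their labelled tissue. The table of other parts with dATF-2KO fathers held 65 of 70 listed accessory gland genes, and 0 of them were at 0 in every library, with a summed level of 52560 to 59207 FPKM in unrestrained and 57610 to 66362 FPKM in restrained libraries. FPKM, fragments per kilobase of transcript relative to the fragments mapped in the library, is the unit of all deposited values. The 19 photoreceptor genes summed to 68.4 to 76.3 FPKM there and to 37109 to 39998 FPKM over both head tables, which were scaled separately. The 7 genes of the ejaculatory duct and bulb were less clearly divided. They summed to 20415 to 23755 FPKM in those other parts and to 4638 to 5166 FPKM over both head tables. Atf-2, the gene removed in the dATF-2KO fathers, was at 9.93 to 13.1 FPKM in other parts with dATF-2KO fathers, where the authors' restrained mean with w1118 fathers was 22.5 in a table scaled on its own. In heads its level was 66.7 to 74.7 FPKM with w1118 fathers and no less than 69.1 with dATF-2KO fathers, so it was not lower there. The sons keep the copy of a w1118 mother, and the genotype of the fathers rests on the labels. With dATF-2KO fathers, 3 libraries stood apart. The other-part and the head library of restrained replicate 3 had summed levels of egg and yolk genes of 5375 and 1221 FPKM, and Yp1, a yolk protein gene, was at 486 FPKM in the former against 0.428 at most in the 9 others. The head library of restrained replicate 4 held more accessory gland RNA than the other heads, as given with the head values.

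With dATF-2KO fathers, 3 of the 5 genes were more abundant in other parts of the sons of restrained fathers, and the other 2 were not. Acp98AB was 1.86-fold, CG42852 1.84-fold and Mst57Db 1.54-fold as high as in the sons of unrestrained fathers, with no overlap between the libraries of the groups. Over all 12363 genes tested, 112 (0.906%) had every restrained library above every unrestrained one, and the members were selected with this difference known. Mst57Da and Mst57Dc, which flank Mst57Db in the same cluster, stood at 0.903-fold and 0.967-fold with overlapping groups. Under quantile normalization the log2 differences were 0.68 for Acp98AB, 0.46 for CG42852 and 0.12 for Mst57Db, in place of 0.90, 0.88 and 0.63. A scaling on other short genes, which moved all genes down alike to a median of -0.71, put Mst57Db at -0.070, or 0.64 above that median.

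Acp98AB was at 6256, 7196, 6135, 7051 and 6000 FPKM in unrestrained replicates 1 to 5 and at 11789, 12911, 12142, 12081 and 11801 FPKM in restrained replicates 1 to 5. The lowest restrained library was well above the highest unrestrained one, and the restrained libraries lay closer together. The means were 6528 ± 554 and 12145 ± 457 FPKM (SD, n = 5 each), a difference of 0.90 on the scale of log2(FPKM + 0.5) with a standard error of 0.06.

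Mst57Db was the most abundant of the 5 genes and ranked first or second among all genes in every library. Its levels were 16650, 22049, 20613, 21039 and 19652 FPKM in the unrestrained replicates and 30089, 31958, 30014, 30394 and 31466 FPKM in the restrained replicates. Unrestrained replicate 1 was the lowest, and the restrained libraries lay closer together than the unrestrained ones. The means were 20001 ± 2061 and 30784 ± 876 FPKM, and the log2 difference was 0.63 with a standard error of 0.07.

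CG42852 was at 8243, 10690, 9669, 10519 and 9137 FPKM in the unrestrained replicates and at 15106, 18056, 17414, 20866 and 17286 FPKM in the restrained replicates. Restrained replicate 4 was the highest and restrained replicate 1 the lowest of their group, and this gene had the widest spread among restrained libraries. The means were 9652 ± 1010 and 17746 ± 2069 FPKM, and the log2 difference was 0.88 with a standard error of 0.09.

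Mst57Da was at 6610, 7172, 6597, 7219 and 7190 FPKM in the unrestrained replicates and at 5765, 6162, 5731, 7058 and 6684 FPKM in the restrained replicates. Restrained replicates 1, 2 and 3 were below every unrestrained library, whereas restrained replicates 4 and 5 were within their range. The means were 6958 ± 324 and 6280 ± 581 FPKM, with a log2 difference of -0.15 and a standard error of 0.06.

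Mst57Dc was the least abundant of the 5 genes, between the ranks 148 and 209 among all genes. It was at 964, 985, 836, 1027 and 945 FPKM in the unrestrained replicates and at 828, 917, 870, 1011 and 973 FPKM in the restrained replicates. Both groups covered nearly the same range. The means were 951 ± 71.1 and 920 ± 74.3 FPKM, with a log2 difference of -0.05 and a standard error of 0.07.

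**Figure D1:**
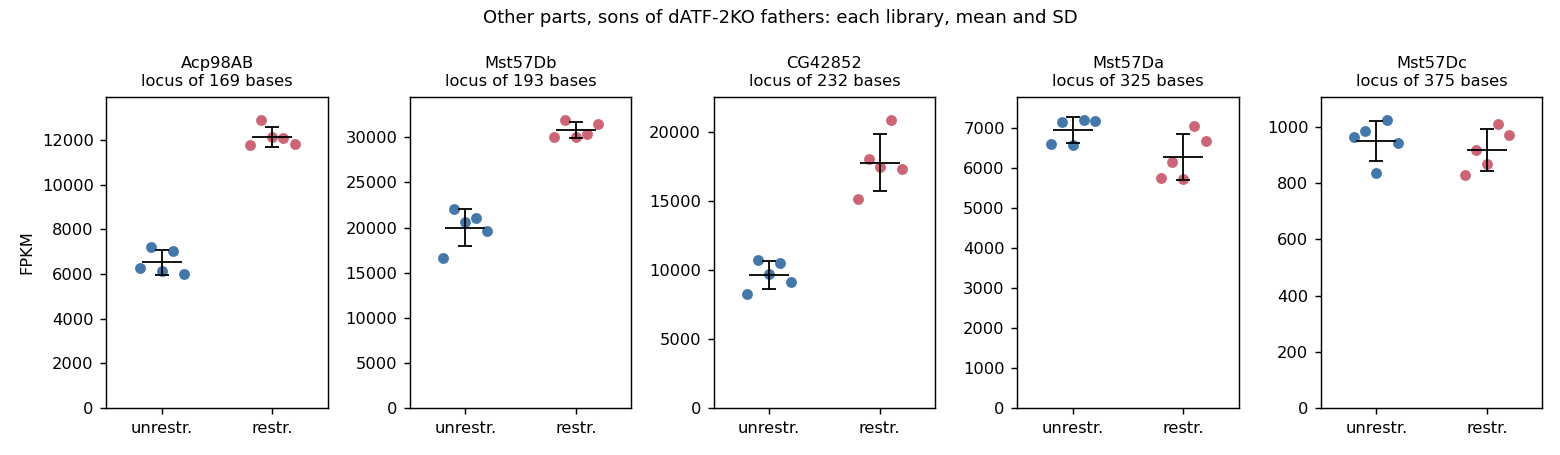
Level of each gene in other parts with dATF-2KO fathers, in FPKM on a linear axis from 0 that differs between genes, with 1 point per library and the mean and SD of 5 libraries as lines. Restrained libraries (right in each panel) lie above all unrestrained ones for Acp98AB, Mst57Db and CG42852, and the groups overlap for Mst57Da and Mst57Dc. When scaled on other short genes, Mst57Db was at -0.070 on the log2 scale, or 0.64 above the median of all genes. That scaling moved all genes alike, so the distance from the median is unchanged by construction. Over all genes tested, 0.906% had every restrained library above every unrestrained one.

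The plot of levels by library shows the separation of the first 3 genes and the overlap of the last 2. A limma fit across the 12363 genes that reached a mean of 1 FPKM, at an adjusted p under 0.05 (Benjamini-Hochberg) and a change of at least 1.4-fold, called 15 genes higher, or 0.121% of the genes tested, and 3 lower. Acp98AB, Mst57Db and CG42852 were among the 15. All restrained libraries were above all unrestrained ones for 112 genes, or 0.906%, and these 3 genes were among them. Because the genes were selected with this comparison known, nothing is read from these counts. Without restrained replicate 3, the library with egg and yolk RNA, the log2 differences were 0.90 for Acp98AB, 0.64 for Mst57Db, 0.88 for CG42852, -0.12 for Mst57Da and -0.03 for Mst57Dc.

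Together the 5 genes accounted for 4.24% ± 0.319 of all FPKM in unrestrained libraries (SD, n = 5, range 3.75% to 4.56%). In restrained libraries the share was 6.30% ± 0.230 (n = 5, range 5.92% to 6.49%). The share was higher in every restrained library than in every unrestrained one. The genes were selected with their difference in these libraries known, so this separation is a description only and nothing is read from it. The share also rests on the length correction in FPKM, which gives a fragment more weight in a shorter transcript. In bulk RNA of this kind, more cells of a type and more RNA per cell cannot be told apart.

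Within the unrestrained group the order of levels was Mst57Db, CG42852, Mst57Da, Acp98AB and Mst57Dc. Mst57Da and Acp98AB, neighbours in this order, overlapped in their libraries. In the restrained group Acp98AB stood above Mst57Da, and no 2 neighbours overlapped.

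The FPKM of each gene moved in whole steps of what 1 fragment was worth in that library, so the number of fragments behind each value could be recovered. For the 5 genes, all 83 values above 0 in the 3 tables with labelled libraries came out within 0.0327 of a whole number of fragments. Acp98AB rested on 1434 to 1972 fragments per unrestrained library and 2283 to 3145 per restrained library. Mst57Db rested on 6609 to 9872 and 9776 to 13275, CG42852 on 1770 to 2670 and 2655 to 4930, Mst57Da on 13207 to 17847 and 9868 to 16242, and Mst57Dc on 2422 to 3558 and 1987 to 3260. Counting error was thus below the spread between libraries for all 5 genes. Fragments are not corrected for copies made in amplification.

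The worth of 1 fragment differed widely between the genes. In unrestrained replicate 1 it was 4.66 FPKM for CG42852, 4.23 for Acp98AB, 2.52 for Mst57Db, 0.478 for Mst57Da and 0.341 for Mst57Dc. A fragment of CG42852 therefore counted 13.7 times as much as one of Mst57Dc, although the transcript of Mst57Dc is only 2.29 times as long in the current annotation. The order of levels depended on this weighting. Per kilobase of annotated transcript and at the median depth, Mst57Da had 45378 fragments in unrestrained libraries, Mst57Db 41264, CG42852 12730, Acp98AB 8944 and Mst57Dc 7478. By FPKM Mst57Db was 2.87 times as high as Mst57Da, and by fragments per kilobase it was 0.909 times as high.

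**Figure D2:**
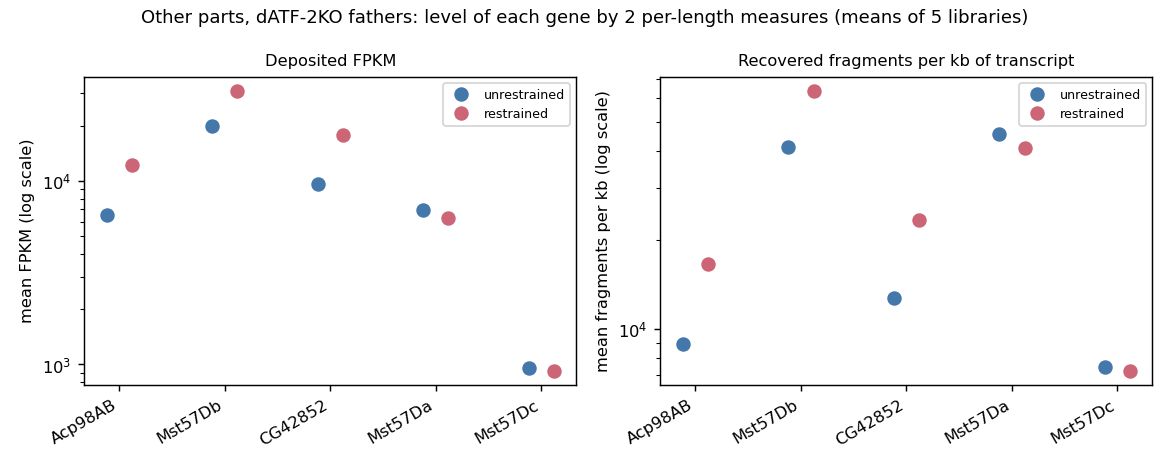
Mean level of each gene in other parts with dATF-2KO fathers (5 unrestrained and 5 restrained libraries, log axes), as deposited FPKM on the left and as recovered fragments per kilobase of annotated transcript on the right. In unrestrained libraries Mst57Db is highest by FPKM and Mst57Da by fragments per kilobase, at 45378 against 41264.

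The plot of the 2 measures shows that a level compared between these genes rests on the length correction. For 1 gene the ratio between groups is the same by either measure by construction. The plot therefore cannot show whether length has a part in that ratio. In restrained libraries the fragments per kilobase were 63511 for Mst57Db, 40958 for Mst57Da, 23406 for CG42852, 16641 for Acp98AB and 7231 for Mst57Dc. Mst57Db passed Mst57Da there, and Mst57Dc remained the lowest by either measure.

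The 3 genes that were higher were the 3 with loci under 250 bases. Other genes of the same locus length were therefore set beside them, with the 5 genes left out. A locus can be longer than its transcript, as for CG42852 with 232 against 165 bases. Transcript lengths of other genes were not used. Of 24 other genes with loci of 150 to under 250 bases, 22 had a log2 difference above 0, 18 (75%) were at least 1.4-fold higher and 4 were called higher, and their median was 0.75. The median was 0.17 for 60 genes of 250 to under 350 bases, 0.05 for 189 genes of 350 to under 500 bases and -0.02 for 12063 genes of 500 bases or more. The 22 genes under 150 bases were widely spread around a median of -0.44.

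Acp98AB, CG42852 and Mst57Db fell within the range of the other genes of 150 to under 250 bases. Of these 24 genes, 7 had a larger log2 difference than Acp98AB, 8 a larger one than CG42852 and 15 a larger one than Mst57Db. Of the 24, 11 had names of small or noncoding RNAs, with a median of 1.12, and the 13 others had a median of 0.56. Of those 13, only the highest, at 0.91, was above Acp98AB or CG42852, and several were above Mst57Db. Among the 17 of the 24 that averaged 20 FPKM or more, the median was 0.67, with 4 above Acp98AB, 4 above CG42852 and 9 above Mst57Db. The most abundant were CG42782, CG42481 and CG43319, at means of 22213, 8416 and 1526 FPKM. Their log2 differences were 0.31, 0.56 and 0.52, each below those of Acp98AB, CG42852 and Mst57Db. Mst57Da and Mst57Dc could be set beside 81 genes of 300 to under 400 bases, whose median was 0.07; 7 of them were lower than Mst57Da and 21 lower than Mst57Dc.

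**Figure D3:**
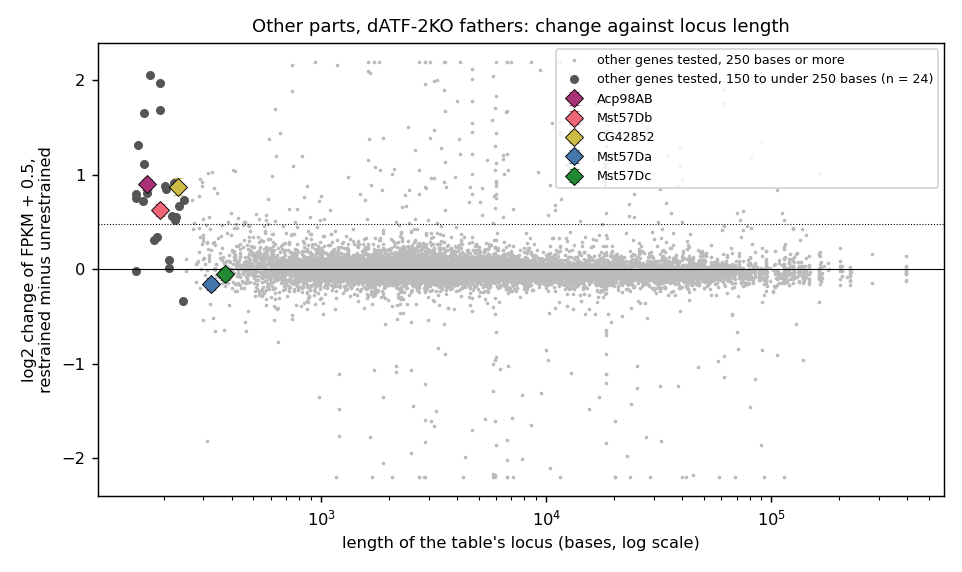
Log2 difference of FPKM + 0.5 between restrained and unrestrained other-part libraries with dATF-2KO fathers against the length of the table's locus (log axis), for genes of at least 150 bases; diamonds are the 5 genes with the standard error, the dotted line is 1.4-fold, and differences beyond 2.2 are drawn at that edge. The 24 other genes of 150 to under 250 bases (dark points, median 0.75) range from -0.33 to 2.06 and lie on both sides of Acp98AB, CG42852 and Mst57Db. When scaled on those 24 genes, Mst57Db was at -0.070, or 0.64 above the median of all genes. That scaling moved all genes alike, so the distance from the median is unchanged by construction. The median was 0.17 for genes of 250 to under 350 bases, and longer genes centre near 0.

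As the plot against locus length shows, the differences of these short genes are set apart from the bulk of genes, and the 3 members lie among them. The same was seen library by library. Relative to the unrestrained mean, the median of the 24 genes was 0.58, 0.60, 0.78, 0.71 and 0.82 on the log2 scale in restrained replicates 1 to 5, and -0.23, 0.39, -0.04, 0.13 and -0.06 in the unrestrained replicates. Acp98AB was at 0.86, 0.99, 0.90, 0.89 and 0.86 in the restrained replicates. Acp98AB was above the median of the short genes in each of the 5 restrained libraries, and Mst57Db was below it in 3 of them.

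**Figure D4:**
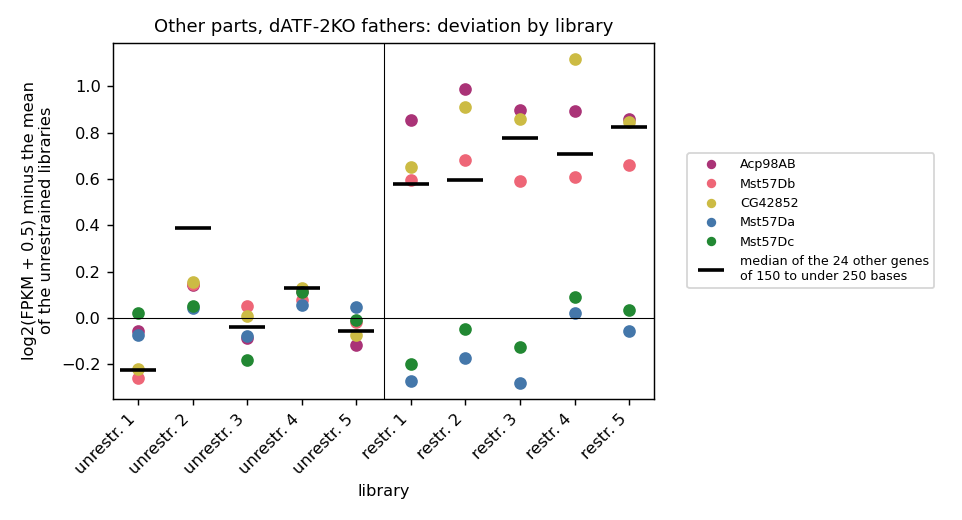
Log2(FPKM + 0.5) of each gene minus its mean over the unrestrained libraries, by other-part library with dATF-2KO fathers, with the median of the 24 other genes of 150 to under 250 bases as a black bar. Acp98AB, CG42852, Mst57Db and the bar are all above 0.5 in every restrained library, while Mst57Da and Mst57Dc stay between -0.28 and 0.11 in all libraries. When scaled on those 24 genes, Mst57Db differed by -0.070, or 0.64 relative to the median of all genes. That scaling moved all genes alike, so the distance from the median is unchanged by construction.

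The plot of deviations shows the level of the short genes moving with the group in the same libraries as the 3 higher members. The part of locus length in their difference was not tested. The low values checked for whole steps came from 8 genes of 150 to under 250 bases and 856 longer genes. Within 0.01, 27 of 27 values were whole in the former and 95.0% of 3328 values in the latter. When each library was scaled on the 24 short genes, an alternative chosen after seeing the data, the log2 differences were 0.20 for Acp98AB, 0.18 for CG42852, -0.070 for Mst57Db, -0.85 for Mst57Da and -0.75 for Mst57Dc. That scaling moved every gene by the same amount, put the median of all genes at -0.71 and turned the calls to 13 higher and 11585 lower, against 15 and 3. Relative to that median the differences were 0.91, 0.89, 0.64, -0.14 and -0.03 in the same order.

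In heads the other genes of this length centred nearer to 0. Their median over 13 genes was -0.01 with w1118 fathers and 0.11 with dATF-2KO fathers.

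Most of the other accessory gland genes differed little between the groups. Of the 65 genes tested, 2 rose, where 0.121% of all genes did, and 0 fell, while 5 were higher and 4 lower at an unadjusted p under 0.05. The median log2 difference was -0.02, as it was over all genes tested to 2 decimals. The list was drawn up with earlier results of these data known. Sfp96F, a seminal fluid protein gene, rose from 5561 ± 850 to 9121 ± 687 FPKM (limma, log2 difference 0.72 ± 0.10 SE, adjusted p = 0.0206). Sfp70A4, of the same class, rose from 473 to 854 FPKM (log2 difference 0.86, adjusted p = 0.00499 by limma). Their loci were 131 and 205 bases long. By locus length, the 6 listed genes under 350 bases had a median of 0.56 with 5 above 0, and the 59 with longer loci a median of -0.04. Among the latter, Acp95EF had a locus of 3013 bases and Sfp87B one of 44049, and their transcript lengths were not used.

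The most abundant listed genes besides Sfp96F differed less between the groups. Acp95EF was at 9828 and 10645 FPKM in unrestrained and restrained libraries, Sfp87B at 8212 and 8203, Sfp60F at 5552 and 5604 and Acp54A1, with a locus of 293 bases, at 2482 and 2496, with log2 differences of 0.11, 0.00, 0.01 and 0.01. Acp70A, the sex peptide that lowers the receptivity of mated females, has a locus of 288 bases. It was at 3440 ± 474 and 4632 ± 285 FPKM, a log2 difference of 0.44 that did not pass (limma, adjusted p = 0.139). With the mean level of the accessory gland list as a covariate, the differences of the members were 0.89 for Acp98AB, 0.86 for CG42852 and 0.62 for Mst57Db. The listed genes themselves had a median log2 difference of only -0.02. The part of the amount of accessory gland RNA in the differences of the members was not tested. The lists of other male tissues had medians of 0.01 (7 genes of the ejaculatory duct and bulb) and -0.04 (26 testis genes), with 0 genes called by limma in either, where 3 and 1 genes had an unadjusted p under 0.05. The 8 fat body genes tested had a median of -0.18, with 0 called and 3 lower at an unadjusted p under 0.05, and the list summed to 1071 to 1327 FPKM in unrestrained and 950 to 1205 FPKM in restrained libraries. Its part in the differences of the 5 genes was not tested.

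Of the neighbouring genes, 2 with short loci rose and the longer ones had differences near 0. Sfp96F lies inside the Mst57D cluster, 332 bases from Mst57Dc and 493 from Mst57Db, so that a locus of 131 bases (0.72) and one of 193 bases (Mst57Db, 0.63) were flanked by loci of 375 bases (Mst57Dc, -0.05) and 325 bases (Mst57Da, -0.15). CG43319, with a locus of 224 bases at 341 bases from Acp98AB, rose from 1255 to 1797 FPKM (limma, log2 difference 0.52, adjusted p = 0.0263). On the other side of Acp98AB, at 203 bases, CG43320 with a locus of 1197 bases had a log2 difference of -0.12. The genes beside CG42852 were 16124 and 10351 bases away, and CG9701 and Nrt, which encodes the adhesion protein neurotactin, had log2 differences of -0.11 and 0.00. The remaining neighbours, alpha4GT2 beside Mst57Da and CG14354 beside Mst57Dc, were at -0.11 and -0.03.

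Over the 10 libraries of other parts, which fall into both groups, the genes most like Acp98AB by Pearson's r of log2(FPKM + 0.5) were CR31084 (0.976), snoRNA:Psi18S-176 (0.966), Sfp70A4 (0.966), Sfp96F (0.960) and snoRNA:Psi18S-1820 (0.950). CR31084, with a locus of 3078 bases, was at 30.5 and 60.3 FPKM and snoRNA:Psi18S-176, a small nucleolar RNA with a locus of 154 bases, at 66.7 and 165 FPKM in unrestrained and restrained libraries. The locus of snoRNA:Psi18S-1820 was 11467 bases long, and the log2 differences of this gene and of CR31084 were 1.45 and 0.97. Thus 2 of the 5 most alike genes had long loci in the table, which need not mean long transcripts. These r values describe 10 libraries that share the group difference and carry no test. Among the 5 genes, r with Acp98AB was 0.967 for Mst57Db, 0.967 for CG42852, -0.59 for Mst57Da and -0.15 for Mst57Dc.

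In other parts with w1118 fathers only the authors' mean of the restrained group was used, which has no spread here and comes from a table scaled on its own. Mst57Db was at 35570 FPKM and had rank 1 of 15061 genes, CG42852 was at 21533 with rank 3, and Acp98AB at 20123 with rank 4. Mst57Da was at 9290 FPKM with rank 15, and Mst57Dc at 1302 with rank 134. The order of the 5 genes was that of the restrained libraries with dATF-2KO fathers, whose means were 30784, 17746, 12145, 6280 and 920 FPKM. The effect of restraint with w1118 fathers was not analysed here.

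In heads the 5 genes were at or near 0. With w1118 fathers, 32 of 50 values were 0 and the other 18 rested on 25 fragments in all, 15 in unrestrained and 10 in restrained libraries, with 3 at most for a gene in a library. A value of 0 allows up to 3 fragments, which is 10.2 to 12.0 FPKM for Acp98AB and 0.822 to 0.970 FPKM for Mst57Dc in that table. With dATF-2KO fathers 35 of 50 values were 0, and the rest held 49 fragments. Of these, 36 were in restrained replicate 4 and 13 in the other 9 libraries, where no value exceeded 2 fragments or 8.36 FPKM.

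**Figure D5:**
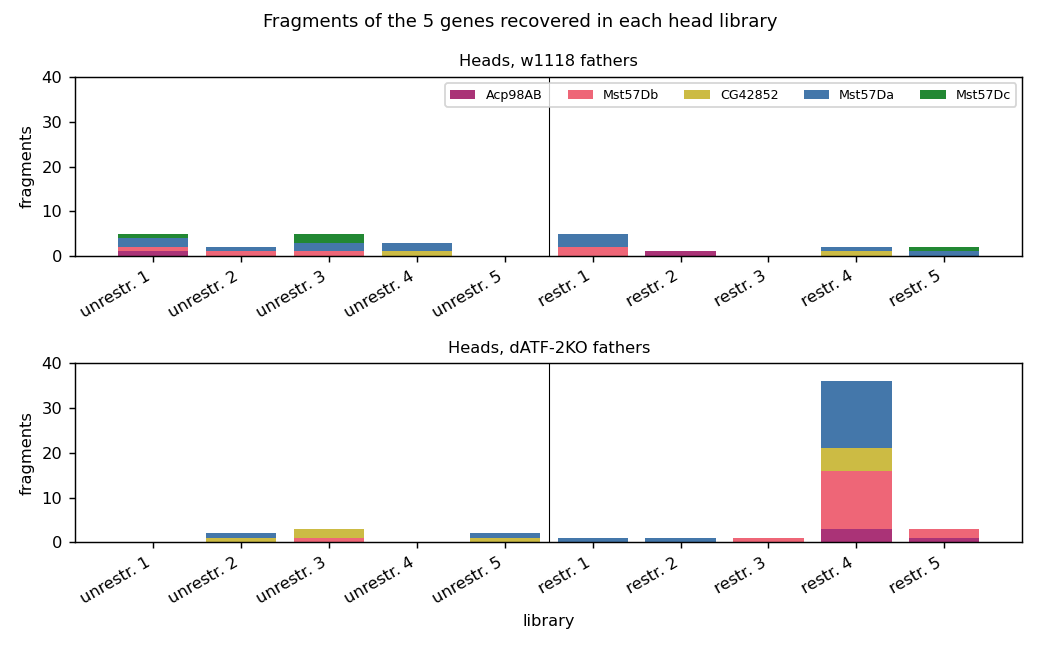
Recovered fragments of the 5 genes in each head library (stacked bars from 0), with w1118 fathers above and dATF-2KO fathers below, unrestrained libraries left of the line. Restrained replicate 4 with dATF-2KO fathers holds 36 fragments, and every other library holds between 0 and 5.

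Restrained replicate 4 with dATF-2KO fathers held 3 fragments of Acp98AB (8.43 FPKM), 13 of Mst57Db (21.8 FPKM), 5 of CG42852 (15.5 FPKM), 15 of Mst57Da (4.77 FPKM) and 0 of Mst57Dc. These levels were 0.0695%, 0.0708%, 0.0873% and 0.0760% of the restrained mean in other parts for the first 4 genes, nearly the same share for each. At the share of Mst57Da, Mst57Dc would have had about 3.08 fragments. Other accessory gland genes were higher in this library too: 16 of them averaging 500 FPKM or more in other parts stood at a median of 0.0911% of it, against 0.00194% to 0.0272% in the other 9 libraries, and the whole list summed to 106 FPKM against 44.9 to 62.7. The part of this RNA in the head differences was not tested.

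No member passed the test in heads. With dATF-2KO fathers the log2 differences were 1.37 for Acp98AB, 1.69 for Mst57Db and -1.21 for CG42852, with standard errors of 0.80, 1.02 and 1.21. Acp98AB and Mst57Db reached the minimum mean of 1 FPKM only through restrained replicate 4, so they are read from the fit without a filter, where their adjusted p were 0.679 and 0.698 by limma. That of CG42852 was 0.774 with the filter. Over the alternatives the adjusted p of CG42852 by limma ranged from 0.437 to 0.909. For Acp98AB and Mst57Db no such range is given, since fits with a minimum mean include them only through restrained replicate 4. Of 9975 genes, 1 was called (0.01%), and 1041 had an unadjusted p under 0.05. Without restrained replicate 4, Acp98AB and Mst57Db were under the minimum and CG42852 was at -2.21. Acp98AB was under the minimum without restrained replicate 5 as well. In heads with w1118 fathers only Mst57Db reached the minimum, at a mean of 1.11 FPKM from values of 1 or 2 fragments. It stayed above the minimum in only 7 omissions of 1 library, so no range over the alternatives is given. Its log2 difference was -0.77 ± 0.81 (SE), with an adjusted p by limma of 0.749 without a filter and 0.703 with it. With the filter, 9 of 9924 genes (0.0907%) were called there and 1563 had an unadjusted p under 0.05. These tests rest on few fragments, and a p that misses the threshold does not show that the groups were alike.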

How the data were processed

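Heads and other parts of male offspring were sequenced in 42 libraries of pooled flies. The authors mapped reads to dm3 and deposited FPKM values in 4 tables, each scaled on its own; the submitters' processing notes name CASAVA, TopHat2, Cufflinks and Cuffnorm. Versions, annotation and read filters were not given in the sources used here, and library kit and sequencer differ between the sources. The tables also hold the authors' group means, ratios, p-values and q-values; of these only the restrained mean for w1118 other parts was used. There, 12 library columns show neither sample nor group in their names and were not used, which left 30 libraries.

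Groups were taken from the sample labels. Log2(FPKM + 0.5) of genes averaging 1 FPKM or more was fitted per table with limma 3.58.1 (R 4.3.3, mean-variance trend, two-sided tests, Benjamini-Hochberg adjustment over the table, thresholds 0.05 and 1.4-fold). The method was tested on simulated data. Fold changes on this scale understate those of low genes. Fragments were recovered by dividing a value by what 1 fragment was worth in that library, taken from the steps between low values. Library depth relative to the median was 0.808 to 1.17 in other parts and 0.866 to 1.45 in heads. The fragment floor of 3 covers counting error only. Genes named are the 5 members, the 6 most abundant listed accessory gland genes and each member's nearest locus on either side. Also named are the 5 genes most correlated with Acp98AB, and Atf-2. Sfp70A4, as a called member of the list, Yp1, CG42782 and CG42481 were named after their values were seen. The members, lists and rules were chosen with earlier results of these data known.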

Additional observations from a re-analysis of the deposited data

Results flagged for a closer look

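A value far from the other 4 libraries of its group was found in 10 of 27 groups of the 5 genes, where chance gives about 1 in 20. All 10 were in heads. In heads with w1118 fathers the only values above 0 in their groups were those of Acp98AB in unrestrained replicate 1 (3.64 FPKM) and restrained replicate 2 (3.44 FPKM), Mst57Db in restrained replicate 1 (4.65 FPKM), CG42852 in unrestrained replicate 4 (3.90 FPKM) and restrained replicate 4 (4.42 FPKM), and Mst57Dc in restrained replicate 5 (0.274 FPKM). Of these, Mst57Db rested on 2 fragments and the others on 1 each. In heads with dATF-2KO fathers, Mst57Db in unrestrained replicate 3 (2.26 FPKM) rested on 1 fragment as well. The 3 others were from the same library, restrained replicate 4 with dATF-2KO fathers: Mst57Db (21.8 FPKM), CG42852 (15.5 FPKM) and Mst57Da (4.77 FPKM), on 13, 5 and 15 fragments. Groups with most values at 0 meet this criterion with a single fragment.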

How the results depend on the processing

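For other parts with dATF-2KO fathers the members were selected on this difference, so counts past the thresholds only describe how the values move with the settings. There were 3 such members under pseudocounts of 0.1 and 1, no filter, a minimum of 5 FPKM, upper quartile scaling, scaling on genes under 500 bases, a robust fit and the accessory gland covariate. Under quantile normalization there was 1 (Acp98AB), with log2 differences of 0.68 (Acp98AB), 0.46 (CG42852), 0.12 (Mst57Db) and -0.31 (Mst57Da); the cause was not tested. Scaling on genes of 150 to under 250 bases, chosen after seeing the data, moved every gene down by the same amount and so gave -0.070 for Mst57Db, which was 0.64 above the median of all genes, and put Mst57Da and Mst57Dc past the threshold for lower, as it did 11585 genes. Without each replicate in turn there were 3 each time, with log2 differences of 0.87 to 0.94 (Acp98AB), 0.82 to 0.93 (CG42852), 0.56 to 0.67 (Mst57Db), -0.19 to -0.12 (Mst57Da) and -0.09 to -0.01 (Mst57Dc). Over all genes, the 15 higher calls became 7 without restrained replicate 2, 9 without unrestrained replicate 5, restrained replicate 3 or restrained replicate 5, and 10 to 15 without the others, and the 3 lower calls ranged from 1 to 4.

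Same-numbered libraries did not deviate together (correlations of -0.12 to 0.14 over the 3 tables), so the numbers were not taken as pairs. With a replicate block, 3 members were past the thresholds in other parts and 0 in either head table, and 17 genes were higher and 0 lower in other parts.

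In heads 0 members passed under any alternative that could be fitted. Leaving out 1 replicate at a time with dATF-2KO fathers gave 1.37 to 1.71 for Acp98AB over 8 omissions and 1.51 to 2.23 for Mst57Db over 9. For CG42852 all 10 omissions gave -2.21 to -0.72. With w1118 fathers, 7 omissions gave -1.13 to -0.54 for Mst57Db. With dATF-2KO fathers Acp98AB fell under the minimum mean without restrained replicate 4 or 5, and Mst57Db without restrained replicate 4. Their ranges therefore do not show what the values are without those libraries. A minimum of 5 FPKM left no member to test in heads, and 3 of the 10 omissions left none with w1118 fathers. In heads with w1118 fathers the 5 higher and 4 lower calls over all genes became 0 and 0 with the replicate block or with scaling on genes of 150 to under 250 bases, 0 and 4 with scaling on genes under 500 bases, and 2 and 0 with the covariate, none of them members. Depth limits the head values, which rest on 1 or 2 fragments in most libraries with a value above 0, and 36 of the 49 fragments with dATF-2KO fathers came from restrained replicate 4.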
